A study of Homo sapiens with 12 samples.

Results

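The transcript response of U87 cells to temozolomide in the presence of a control siRNA was taken from 6 of 12 arrays, 3 with the drug and 3 with its solvent. A probe was kept where it had exactly 1 gene symbol and where 3 or more of the 12 arrays detected it, at a detection p-value below 0.01, which left 14270 of 47320 probes and 10686 genes. Of the named probes, 312 were detected on exactly 3 arrays and kept, with a median mean log2 intensity of 4.61, and 511 were detected on exactly 2 arrays and left out, with a median of 4.56. U87 is an established human glioma cell line, grown here in DMEM with serum. The 4 groups of 3 arrays were control siRNA with DMSO, control siRNA with TMZ, BCL3 siRNA with DMSO and BCL3 siRNA with TMZ, where TMZ is temozolomide at 100 µM for 24 h after transfection, and all 12 samples had been transfected. BCL3 is a nuclear protein of the I-kappa-B family, and its siRNA was used here only as a second setting in which the same drug effect was measured. The labels do not say whether the 3 samples of a group came from separate cultures, so every p-value here is against a spread among samples that could be purely technical.

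Temozolomide is an alkylating drug given against glioblastoma. It methylates DNA bases, and the lesion at the O6 position of guanine is removed by the repair enzyme MGMT or, when left, is mispaired in replication and then processed by mismatch repair into strand breaks. Damage kinases then stabilise the transcription factor p53, which raises genes that stop the cell cycle, such as CDKN1A, genes of cell death, such as FAS and BAX, genes of DNA repair, such as DDB2 and XPC, and its own inhibitor MDM2. Hypoxia-inducible factors raise genes of glucose uptake, glycolysis and mitophagy, and bind DNA at a core of the letters ACGTG or GCGTG. NF-kB raises cytokines and its own inhibitors.

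Array brightness differed between the groups. Mean raw intensity was 292.2 ± 25.8 (SD, n = 3; range 265.9 to 317.5) with control siRNA and DMSO and 262 ± 1.39 (n = 3; 260.7 to 263.5) with control siRNA and TMZ, so all DMSO arrays were brighter than all TMZ arrays before normalization. With BCL3 siRNA the order of the means was the other way, 247.8 with DMSO and 267 with TMZ. There the ranges overlapped, at 229.6 to 258 with DMSO and 241.8 to 283 with TMZ. After normalization, arrays of 1 group with control siRNA correlated at 0.9963 to 0.9972 and arrays of the opposite treatment at 0.9941 to 0.9963. The first principal component of the 6 arrays held 38.6% of the variance and put the DMSO arrays at -10.56, -6.28 and -2.86 and the TMZ arrays at 9.81, 6.35 and 3.54. Of 12 glioma and astroglial markers 9 passed the filter, among them VIM, NES and CD44, while GFAP, S100B and AQP4 did not. Their summed linear level was 31852 to 32511 with DMSO and 30397 to 31790 with TMZ. Of the other cell types' markers, 4 of 8 leukocyte and 4 of 8 neuron markers passed, and 1 each of the oligodendrocyte, epithelial and endothelial lists. The summed leukocyte level, from CD14, CD68, AIF1 and LYZ, was 2016 to 2254 with DMSO and 1980 to 2192 with TMZ. BCL3 itself lay between 7.25 and 7.47 log2 units with DMSO and between 7.26 and 7.36 with TMZ in control siRNA cells, and between 6.28 and 6.57 on the 6 arrays with BCL3 siRNA. In RNA from whole cultures, a change in the number of cells of a kind and a change in RNA per cell cannot be told apart.

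With control siRNA, the drug raised 50 genes, which is 0.468% of those tested, and lowered 42 genes, or 0.393%, by limma with an adjusted p under 0.05, 92 genes (0.861%) in all. The changes were small. The median log2 change was 0.42 among risen and -0.41 among fallen genes, against 0.011 over all genes, a size of 1.5-fold was reached by 13 rises and 5 falls, and 2-fold by 2 genes, GDF15 and CDKN1A. On unadjusted p under 0.05, 1631 genes (15.3%) passed. The 3 arrays of one treatment lay wholly to one side of the other 3 for 2435 genes (22.8%), 1387 of them higher with TMZ (13%) and 1048 lower (9.81%). All 92 genes past the threshold were among these. When the log2 raw brightness of each array was added to the model, 16 genes rose and 12 fell, and all 28 were among the 92. The part of brightness in the other calls was not tested further.

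**Figure D1:**
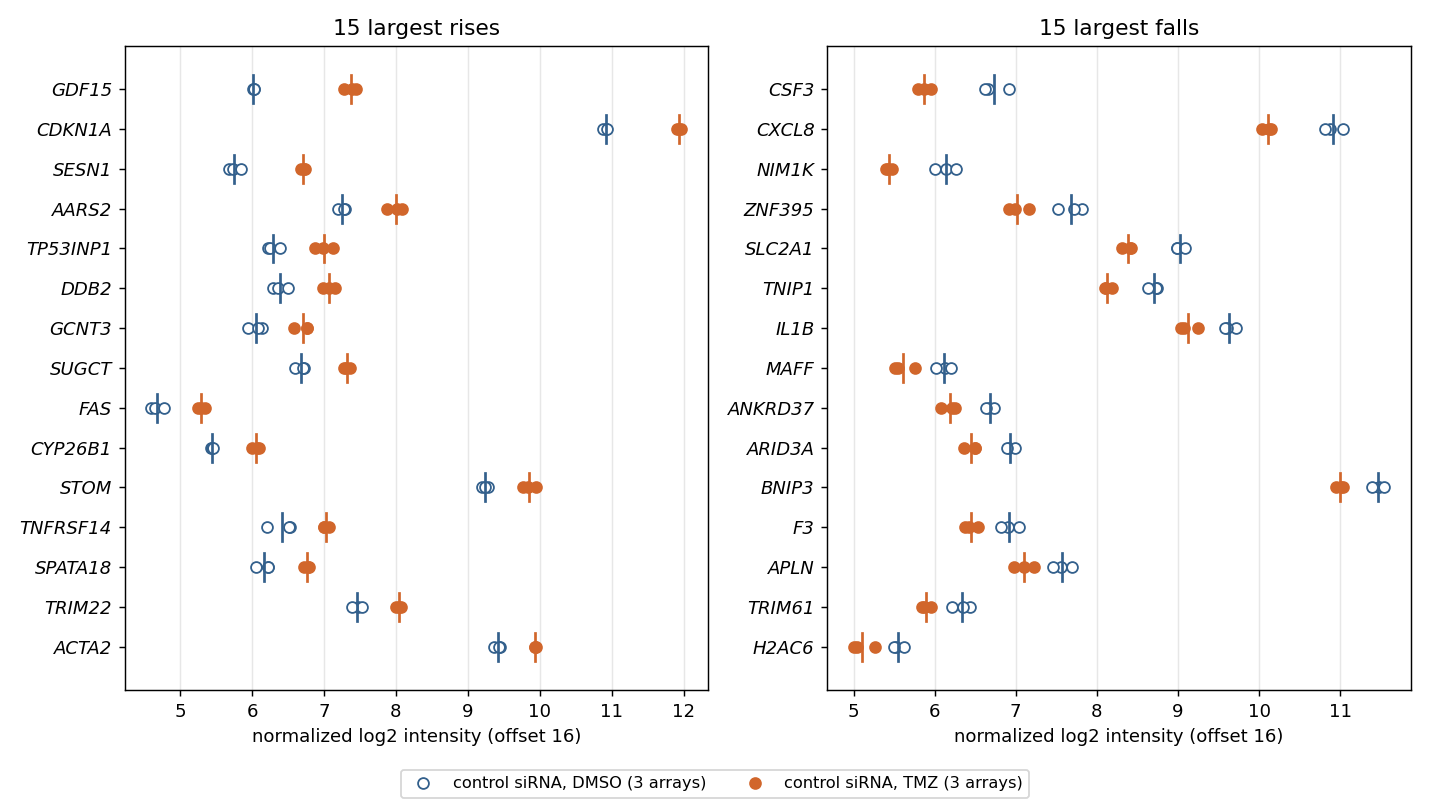
Normalized log2 intensity (offset 16) of the 15 largest rises (left) and 15 largest falls (right) with control siRNA. Open circles are the 3 DMSO arrays, filled circles the 3 TMZ arrays, and upright lines the group means; in every gene the groups lie apart, by the rule that chose them.

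The 3 largest rises belonged to the p53 target lists. GDF15, a secreted stress cytokine of the TGF-beta superfamily, stood at 6.02, 6.01 and 6.02 log2 units on the DMSO arrays and at 7.45, 7.39 and 7.28 on the TMZ arrays. The groups lay far apart, and the rise was 1.35 (SE 0.06), or 2.56-fold, with an adjusted p of 2.6e-07 by limma. CDKN1A encodes p21, the inhibitor of cyclin-dependent kinases that holds cells before S phase. Its level was 10.92, 10.88 and 10.94 with DMSO and 11.97, 11.90 and 11.94 with TMZ, a rise of 1.02 (SE 0.05), or 2.03-fold, with an adjusted p of 3.66e-07. Every TMZ array was about 1 log2 unit above every DMSO array. SESN1, a sestrin that restrains growth signalling through mTORC1, went from 5.68, 5.73 and 5.84 to 6.74, 6.68 and 6.72, a rise of 0.96 (SE 0.07; adjusted p = 1.06e-05).

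Among p53 targets of arrest and feedback, 5 of 17 measured genes rose and none fell, and the median log2 change of the list was 0.25. Besides GDF15 and CDKN1A these were TRIM22, PHLDA3 and PPM1D. TRIM22, a RING-finger protein also known from the interferon response, was at 7.47, 7.53 and 7.39 with DMSO and 8.00, 8.07 and 8.04 with TMZ (0.57, SE 0.06, adjusted p = 0.000413). PHLDA3, which holds back AKT at the membrane, was at 8.10, 8.07 and 8.05 and then 8.58, 8.56 and 8.53 (0.48; adjusted p = 0.00495). PPM1D encodes the phosphatase WIP1, which switches the damage kinases and p53 off again. Its DMSO arrays spread more, at 6.04, 5.75 and 5.93, against 6.44, 6.38 and 6.28 with TMZ (0.47; adjusted p = 0.0148).

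MDM2, the ubiquitin ligase that degrades p53, did not pass. Its values were 4.74, 5.20 and 5.06 with DMSO and 5.31, 5.35 and 5.42 with TMZ, so the groups lay apart, but the change of 0.36 (SE 0.12) had an adjusted p of 0.18. With BCL3 siRNA the change of MDM2 was 0.51 (adjusted p = 0.0631). CCNG1, a cyclin in the p53 feedback loop, stood at a change of 0.27 (adjusted p = 0.119).

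Of 19 measured p53 targets of cell death, 4 rose, namely TP53INP1, FAS, SPATA18 and CYFIP2, and the list median was 0.22. FAS, the death receptor for FAS ligand, was near the detection limit with DMSO, where 1 of 3 arrays detected it. Its values were 4.60, 4.65 and 4.77 with DMSO and 5.25, 5.29 and 5.34 with TMZ (0.62, SE 0.08, adjusted p = 0.00234). TP53INP1, a nuclear partner of p53 in stress, was at 6.22, 6.25 and 6.39 and then 6.88, 7.12 and 6.99 (0.71; adjusted p = 0.00852). A second probe of TP53INP1 moved by 0.75 (adjusted p = 0.00221). SPATA18 acts in removal of damaged mitochondrial proteins, and its change was 0.60 (adjusted p = 0.000892). CYFIP2, of the WAVE actin complex, changed by 0.34 (adjusted p = 0.0107).

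BAX, which opens the outer mitochondrial membrane, spread widely between DMSO arrays. It stood at 7.36, 8.44 and 8.16 with DMSO and at 9.18, 8.95 and 8.61 with TMZ, a difference of 0.93 (SE 0.21) with an adjusted p of 0.0681. The groups did not overlap, but the first DMSO array lay well below the other 2. BBC3, which encodes the BH3-only protein PUMA, changed by -0.16 (adjusted p = 0.493). TNFRSF10B, the TRAIL death receptor DR5, changed by 0.25 (adjusted p = 0.109). TP53I3, an oxidoreductase induced by p53, changed by 0.38 (adjusted p = 0.102) with control siRNA and by 0.71 (adjusted p = 0.00432) with BCL3 siRNA.

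Of 7 measured p53 targets of DNA repair, DDB2 and XPC rose, and the list median was 0.29. Both proteins find damaged bases for nucleotide excision repair. DDB2 was at 6.30, 6.36 and 6.49 with DMSO and at 7.15, 6.99 and 7.07 with TMZ (0.69, SE 0.09, adjusted p = 0.00155). XPC was at 8.52, 8.25 and 8.35 and then 8.74, 8.79 and 8.83 (0.41; adjusted p = 0.0179). PCNA, the sliding clamp of DNA polymerases, changed by 0.29 (adjusted p = 0.0651), and RRM2B, the p53-induced ribonucleotide reductase subunit, by 0.30 (adjusted p = 0.26). Of 18 measured p53 targets of stress and metabolism, SESN1 alone rose, and the list median was 0.15. TIGAR, which lowers glycolytic flux, changed by 0.26 (adjusted p = 0.0936).

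Over the 4 p53 lists together 12 of 61 measured genes rose (19.7%), against 0.468% of all genes tested, and none fell. All 3 TMZ arrays were above all 3 DMSO arrays for 34 of the 61 (55.7%), against 13% of all genes tested. Of the 61, 51 lay above 0, and their median was 0.195, against 0.011 over all genes. Under median scaling in place of quantile normalization, the median of all genes moved to -0.111, and the 4 p53 list medians stayed above 0, between 0.025 and 0.149. Of the 12 risen p53 genes, 7 passed under median scaling, 8 with brightness in the model and 3 in a test for at least 1.2-fold. When 1 of the 6 arrays was left out, 8 to 11 of the 12 passed. XPC lost its call in 5 of the 6 omissions, PPM1D and CYFIP2 in 3 each and TP53INP1 in 2.

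**Figure D2:**
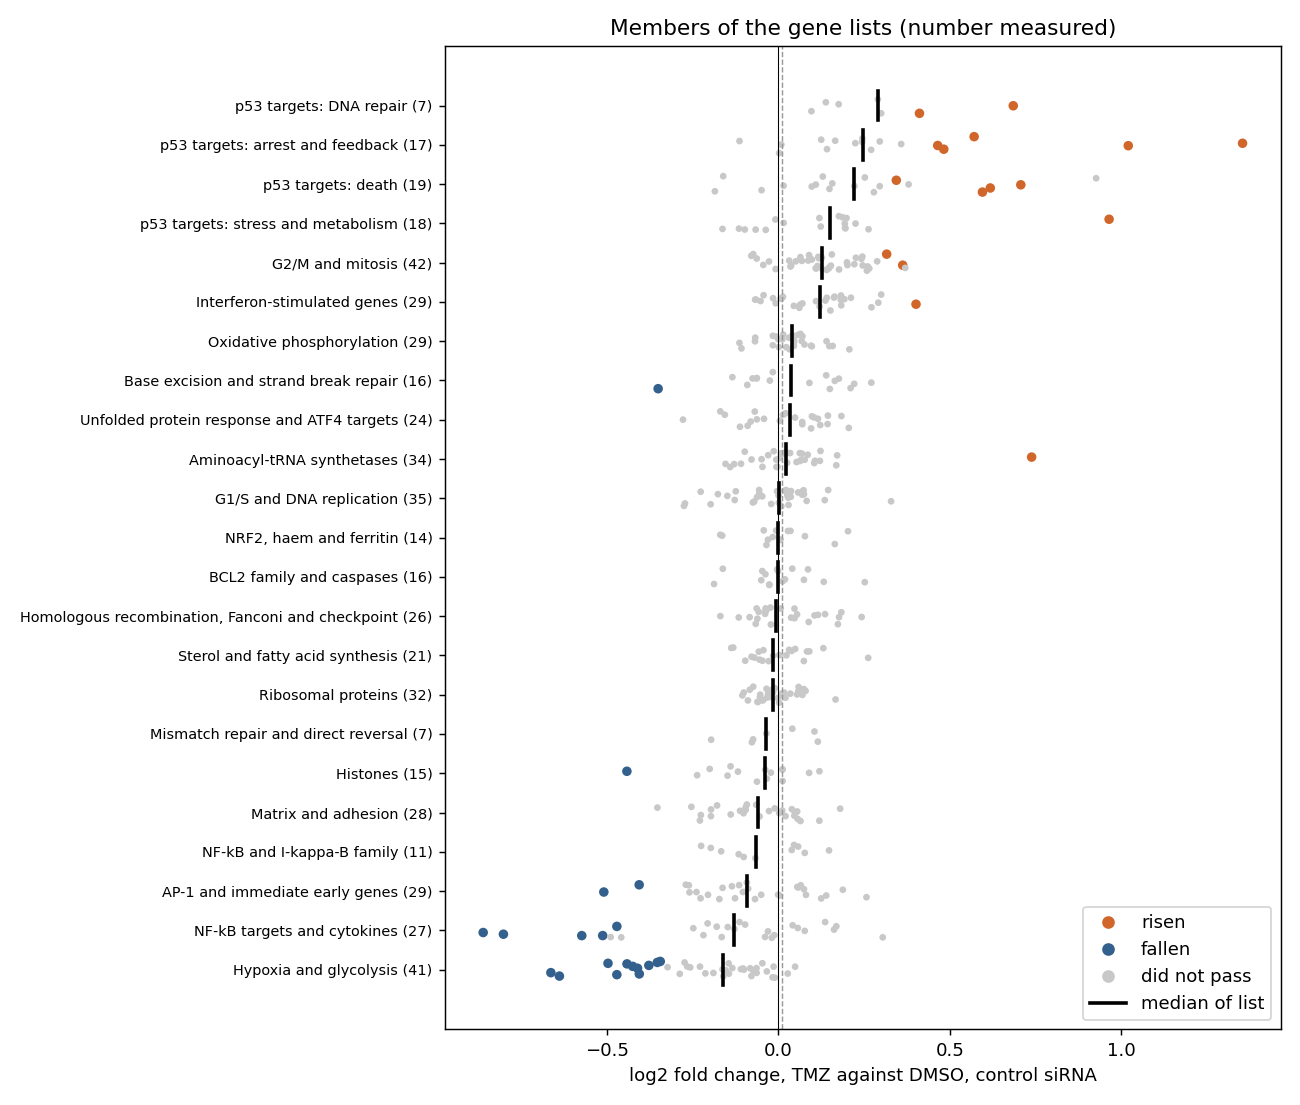
The log2 change with TMZ (horizontal axis) of every measured member of 23 pathway lists with control siRNA, ordered by list median (black bars); the dashed line is the median of all genes. Coloured points passed the test: risen genes gather in the p53 lists, 12 of 61, and fallen genes in the hypoxia list, 11 of 41, and the list of NF-kB targets, 5 of 27. Of all genes tested 0.468% rose and 0.393% fell.

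The other lists of the damage response held 1 called gene. Of 7 measured genes of mismatch repair and direct reversal none passed, and the median was -0.035. MSH6, a protein of mismatch recognition, changed by -0.07 (adjusted p = 0.685). MGMT was detected on 0 of the 12 arrays and was not tested. MPG, the glycosylase that removes methylated purines, had 3 probes, none detected on more than 1 array. Of 16 genes of base excision and strand break repair 1 passed (6.25%), against 0.861% of all genes tested. It was UNG, the uracil glycosylase, which fell by 0.35 on the log2 scale (adjusted p = 0.0261). That call was lost in each of the 6 omissions of 1 array. A second UNG probe changed by -0.21 (adjusted p = 0.448). TDG, the thymine glycosylase, changed by 0.27 (adjusted p = 0.0839). None of 26 genes of homologous recombination, the Fanconi pathway and checkpoints passed, nor of 35 genes of G1/S and replication, where the median was 0.002. UHRF1, which keeps DNA methylation through replication and is one of these 35, changed by -0.27 (adjusted p = 0.0605).

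Of the mitotic genes 2 rose, by small amounts. TOP2A, the topoisomerase that untangles replicated chromosomes, was at 10.40, 10.50 and 10.47 with DMSO and at 10.77 on all 3 TMZ arrays (0.32; adjusted p = 0.0197). CDK1, the kinase that drives entry into mitosis, was at 9.60, 9.58 and 9.60 and then 9.86, 10.01 and 10.00 (0.36; adjusted p = 0.0246). A second CDK1 probe changed by 0.30 (adjusted p = 0.228). TOP2A and CDK1 were the only 2 of 42 measured G2/M genes that passed (4.76%), against 0.861% of all genes tested. For 23 of the 42 (54.8%) all TMZ arrays lay above all DMSO arrays, against 13% of all genes tested, and 36 were above 0. The list median was 0.128, against 0.011 over all genes. Under median scaling the list median was -0.021, against -0.111 for all genes, and neither TOP2A nor CDK1 passed. CDK1 kept its call in 1 of the 6 omissions of 1 array and TOP2A in none. With BCL3 siRNA the G2/M median was 0.049, and changes of 0.16 for TOP2A (adjusted p = 0.203) and 0.21 for CDK1 (adjusted p = 0.173) did not pass.

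In the interferon-stimulated list 1 gene rose (3.45%), against 0.468% of all genes tested. HERC5, the ligase that attaches ISG15, rose by 0.40 (adjusted p = 0.0218), out of 29 measured genes, and its call was lost in 5 of the 6 omissions of 1 array. ISG15 itself changed by 0.27 (adjusted p = 0.0966). All TMZ arrays lay above all DMSO arrays for 15 of the 29 genes (51.7%), against 13% of all genes tested. The list median was 0.121, against 0.011 over all genes. Under median scaling it was -0.013, against -0.111 for all genes.

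The fallen genes included 11 of 41 measured genes of hypoxia and glycolysis (26.8%), against 0.393% of all genes tested. None of the 41 rose, the list median was -0.16 and 39 members lay below 0. All TMZ arrays lay below all DMSO arrays for 26 of the 41 (63.4%), against 9.81% of all genes tested. SLC2A1 encodes the glucose transporter GLUT1. It was at 8.98, 8.99 and 9.09 with DMSO and at 8.42, 8.41 and 8.31 with TMZ, a change of -0.64 (SE 0.06; adjusted p = 0.000163). ZNF395, a zinc-finger protein induced in hypoxia, went from 7.81, 7.72 and 7.52 to 6.91, 7.16 and 6.99 (-0.66; adjusted p = 0.00155). In both genes the 2 groups stood clear of each other.

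BNIP3, a mitophagy receptor of the outer mitochondrial membrane, was at 11.48, 11.54 and 11.39 and then 11.02, 11.04 and 10.94 (-0.47; adjusted p = 0.00155). Its relative BNIP3L changed by -0.38 (adjusted p = 0.0293). ANKRD37, a small ankyrin-repeat protein, was at 6.67, 6.74 and 6.64 and then 6.22, 6.25 and 6.08 (-0.50; adjusted p = 0.00123). The phosphofructokinase-2 isozymes PFKFB3 and PFKFB4, which set the level of the main activator of glycolysis, changed by -0.41 (adjusted p = 0.00753) and -0.34 (adjusted p = 0.0179). DDIT4, an inhibitor of mTORC1, changed by -0.44 (adjusted p = 0.0185), and NDRG1, a stress gene of growth arrest, by -0.42 (adjusted p = 0.025). INSIG2, which holds sterol regulators in the endoplasmic reticulum, and ANGPTL4, an inhibitor of lipoprotein lipase, made up the rest, at -0.41 and -0.35 (adjusted p = 0.0197 for each). Further probes of 3 of these genes did not pass. For ANGPTL4, 2 changed by -0.33 (adjusted p = 0.276) and -0.07 (adjusted p = 0.757). Second probes of PFKFB3 and BNIP3L changed by -0.26 (adjusted p = 0.295) and -0.36 (adjusted p = 0.152).

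Other known hypoxia genes did not pass. LDHA, lactate dehydrogenase A, changed by -0.03, and VEGFA, the angiogenic growth factor, by -0.14. P4HA1, a collagen prolyl hydroxylase, came close at -0.29 (adjusted p = 0.0539). For the whole list the median was -0.32 under median scaling, against -0.111 for all genes. Under cyclic loess it was -0.165, against 0.015 for all genes. With array brightness in the model, 4 of the 41 passed and the median was -0.18. Without DMSO replicate 1, 2 or 3 the number past the threshold was 7, 6 or 5, and without TMZ replicate 1, 2 or 3 it was 5, 6 or 5. PFKFB4 lost its call in each of these. With BCL3 siRNA 13 of the 41 fell, against 0.459% of all genes tested, and the list median was -0.22, against 0.002 over all genes.

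The 36 promoters of that list found in RefSeq (GRCh38.p14, 250 bases before to 50 bases after the start of the gene) were searched for ACGTG on both strands, where the palindrome CACGTG counts once on each strand. The core was chosen with the fall of the list known. It was present in 20 of 36 (55.6%), against 27.9% of the 8684 promoters found for all genes tested, 36.4% of 33 found for fallen genes and 14.6% of 41 found for risen genes. Within the list, 5 of 8 fallen genes and 15 of 28 genes that did not pass had it, and LDHA, which barely differed, had it 5 times. The other core, GCGTG, was in 55.6% of the list and 51.2% of all. Promoters of ANKRD37 (chr4:185396591-185396890, plus strand) and BNIP3 (chr10:131981874-131982173, minus strand) are shown as the called genes in which the core occurs more than once, with DDIT4 (chr10:72273674-72273973, plus strand) as one with a single match; capitals mark the core on either strand, and no match is by itself a binding site.
ANKRD37: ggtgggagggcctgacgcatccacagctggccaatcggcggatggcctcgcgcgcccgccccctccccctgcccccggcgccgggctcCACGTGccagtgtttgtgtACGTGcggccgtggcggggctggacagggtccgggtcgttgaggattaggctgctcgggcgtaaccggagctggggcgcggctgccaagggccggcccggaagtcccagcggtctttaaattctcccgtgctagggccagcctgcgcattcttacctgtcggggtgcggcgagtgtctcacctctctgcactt
BNIP3: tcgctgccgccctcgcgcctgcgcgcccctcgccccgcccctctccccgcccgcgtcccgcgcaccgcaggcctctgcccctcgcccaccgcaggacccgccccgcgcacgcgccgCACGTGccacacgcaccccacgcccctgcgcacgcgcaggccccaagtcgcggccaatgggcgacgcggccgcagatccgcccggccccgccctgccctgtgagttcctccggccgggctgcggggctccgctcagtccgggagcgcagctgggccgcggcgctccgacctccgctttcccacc
DDIT4: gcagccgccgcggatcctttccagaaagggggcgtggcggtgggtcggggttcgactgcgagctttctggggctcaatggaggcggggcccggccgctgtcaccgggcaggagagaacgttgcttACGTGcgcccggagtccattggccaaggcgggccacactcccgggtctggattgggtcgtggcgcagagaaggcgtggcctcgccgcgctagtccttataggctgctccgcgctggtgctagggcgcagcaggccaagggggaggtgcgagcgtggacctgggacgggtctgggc
The cores of ANKRD37 began 162, 161 and 143 bases before the start, those of BNIP3 134 and 133 bases before it and that of DDIT4 125 bases before it.

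Of the 27 measured genes of the NF-kB target and cytokine list 5 fell (18.5%), against 0.393% of all genes tested. Among the 5 were 3 cytokines, and none of the 27 rose, with a list median of -0.128. CXCL8 encodes interleukin 8, the neutrophil-attracting chemokine. It was at 11.03, 10.88 and 10.81 with DMSO and 10.04, 10.12 and 10.15 with TMZ, a change of -0.80 (SE 0.08; adjusted p = 0.00041), and a second probe changed by -0.86 (adjusted p = 0.00759). CSF3, granulocyte colony-stimulating factor, went from 6.92, 6.65 and 6.62 to 5.87, 5.96 and 5.79, the largest fall of all genes at -0.86 (SE 0.13; adjusted p = 0.00671). IL1B, interleukin 1 beta, went from 9.72, 9.60 and 9.57 to 9.04, 9.24 and 9.08 (-0.51; adjusted p = 0.0107). In all 3 genes the highest TMZ array was below the lowest DMSO array.

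TNIP1, which restrains NF-kB signalling with the editing enzyme A20, was at 8.75, 8.74 and 8.63 and then 8.11, 8.10 and 8.19 (-0.57; adjusted p = 0.000539). F3, tissue factor, was at 6.90, 6.82 and 7.04 and then 6.38, 6.43 and 6.54 (-0.47; adjusted p = 0.00406). IL6 changed by -0.49 with an adjusted p of 0.0675. None of the 11 measured members of the NF-kB and I-kappa-B families passed. Without DMSO replicate 1 or without TMZ replicate 1, 4 of the 27 passed, IL1B being lost in each case (adjusted p = 0.0661 and 0.0724).

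**Figure D3:**
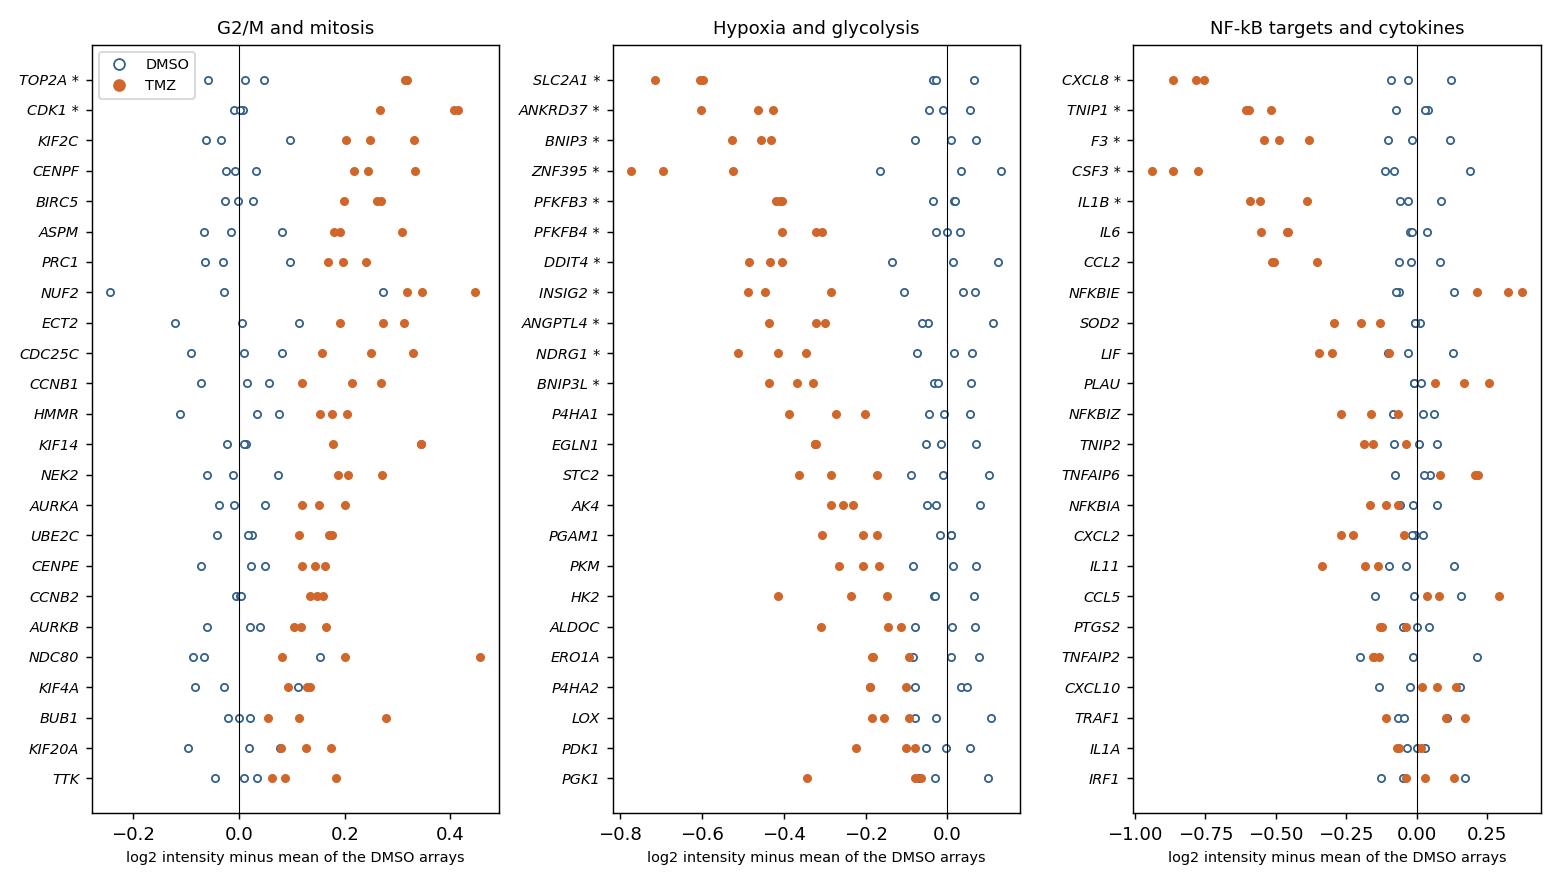
Log2 intensity on each control siRNA array minus the mean of the 3 DMSO arrays, for the 24 members with the lowest p in the G2/M, hypoxia and NF-kB lists. Open circles are DMSO and filled circles TMZ, and a star marks genes past an adjusted p of 0.05: the TMZ points of the 11 called hypoxia genes and the 5 called genes of the NF-kB list lie below their DMSO points, and those of the 2 called G2/M genes above.

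Immediate early genes contributed 2 falls, MYC and MAFF, out of 29 measured (6.9%), against 0.393% of all genes tested. MYC, the growth-promoting transcription factor, went from 9.24, 9.18 and 9.30 to 8.85, 8.81 and 8.85 (-0.41; adjusted p = 0.00347), but a second MYC probe changed by -0.17 (adjusted p = 0.476). MAFF, a small MAF protein, changed by -0.51 (adjusted p = 0.0179), and 2 other MAFF probes by -0.42 (adjusted p = 0.0583) and -0.16 (adjusted p = 0.594). Of the 29 genes 1 passed without DMSO replicate 1, DMSO replicate 2, TMZ replicate 1 or TMZ replicate 3, MAFF being lost in each case. CCN2 and JUN stood at -0.26 (adjusted p = 0.0539) and -0.27 (adjusted p = 0.0877). Of 15 histone genes H2AC6 alone fell (6.67%, against 0.393% of all genes tested), by 0.44 on the log2 scale (adjusted p = 0.0439). Its call was lost in 7 of the 12 omissions of 1 array and under 8 of 17 other settings.

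AARS2, the alanyl-tRNA synthetase of mitochondria, was the one of 34 tRNA synthetases to pass (2.94%), against 0.861% of all genes tested. It stood at 7.20, 7.29 and 7.28 with DMSO and at 8.09, 8.02 and 7.87 with TMZ, a rise of 0.74 (SE 0.07; adjusted p = 0.000117) while the list median was 0.022. In no list were 34 risen and 22 fallen genes. ACTA2, smooth muscle actin, was at 9.37, 9.45 and 9.43 and then 9.95, 9.94 and 9.93 (0.52, SE 0.05, adjusted p = 0.00041). Its 3 TMZ values nearly coincided. The promoter windows of ACTA2 (chr10:88991288-88991587, minus strand) and FAS (chr10:88990548-88990847, plus strand) face opposite ways, and the ACTA2 start lies downstream of the FAS start, so the 2 risen genes overlap on opposite strands.

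ACTA2 was also the only one of 41 risen genes with a RefSeq promoter that held a p53 half-site, the decamer on which p53 dimers bind (2.44%). The half-site was in 5.33% of all promoters tested, in 12.1% of those of fallen genes and in 8.16% of the 49 of the measured p53 lists. None of 9 risen p53-list genes held one in this window of 300 bases, which says nothing about sites further away. The ACTA2 window is shown because it held 2, in capitals, beginning 219 bases before the start and at base 20 of the gene.
ACTA2: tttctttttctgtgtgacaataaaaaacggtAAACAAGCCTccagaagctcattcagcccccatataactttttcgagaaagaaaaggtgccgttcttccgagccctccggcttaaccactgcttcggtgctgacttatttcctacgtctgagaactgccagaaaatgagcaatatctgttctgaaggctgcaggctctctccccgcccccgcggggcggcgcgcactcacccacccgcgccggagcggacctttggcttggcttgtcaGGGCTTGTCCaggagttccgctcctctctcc

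Further rises of at least 1.5-fold came from GCNT3, an enzyme of mucin glycan branching, at 0.65 (adjusted p = 0.000413), and SUGCT, a CoA transferase of glutarate metabolism, at 0.64 (adjusted p = 0.000501). CYP26B1, which breaks down retinoic acid, rose by 0.61 (adjusted p = 0.000316). STOM, the membrane protein stomatin, and TNFRSF14, the herpesvirus entry mediator, rose by 0.61 each (adjusted p = 0.00402 and 0.00406). AKR1B10, an aldo-keto reductase, and TOB1, an antiproliferative protein, changed by 0.50 (adjusted p = 0.00103) and 0.48 (adjusted p = 0.0197). Rises without list membership also included FST, the activin-binding follistatin, at 0.39, TERF1, a telomere-binding protein, at 0.39, and IDH2, the mitochondrial isocitrate dehydrogenase, at 0.35. STYK1, one of the 50, was detected on no DMSO array with either siRNA and on all TMZ arrays, so it entered the test only through the groups in which it was higher. Against the detection floor its level with TMZ was at least 1.02-fold higher, and its call, which rests on values below that floor, was lost in each of the 6 omissions of 1 control siRNA array. NIM1K, a kinase of the AMPK-related group, fell by 0.71 (adjusted p = 0.00753), and ARID3A, an AT-rich DNA-binding protein, fell by 0.48 (adjusted p = 0.00329). APLN, the peptide apelin, fell by 0.47 (adjusted p = 0.0232) and OSMR, the oncostatin M receptor, fell by 0.41 (adjusted p = 0.0197).

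Neighbours of the threshold show how little separates the groups of called and uncalled genes. Just inside were RRS1 (adjusted p = 0.0495), HSPA12A (0.0447) and RGMB (0.0443). Just outside were TCEAL7 (0.0506), TMEM45A (0.0513) and RNF145 (0.0539). CA2, carbonic anhydrase 2, changed by 0.30 (adjusted p = 0.126) by its brighter probe and by 0.39 (adjusted p = 0.0196) by the other. Of 31 further probes for 25 of the called genes, all 31 had the sign of the reported probe and 5 passed on their own.

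None of the remaining lists had a called gene: the BCL2 family and caspases (16 measured), unfolded protein response (24), NRF2 targets (14), sterol synthesis (21), matrix and adhesion (28), ribosomal proteins (32) and oxidative phosphorylation (29). Their medians lay between -0.059, for matrix and adhesion, and 0.041, for oxidative phosphorylation.

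The same drug contrast with BCL3 siRNA used 6 other arrays and raised 64 genes (0.599%) and lowered 49 (0.459%), 113 in all (1.06%). All 50 genes risen with control siRNA were above 0 there and 33 rose; over all genes tested 50.7% were above 0. Of the 42 fallen genes 41 were below 0 and 19 fell, against 49.3% of all genes below 0. The median log2 change of the 50 was 0.40 with BCL3 siRNA, and that of the 42 was -0.29. Across all genes the 2 contrasts, which share no arrays, correlated with r = 0.397 and rho = 0.36, and 62.8% of genes had the same sign; genes are not independent replicates.

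**Figure D4:**
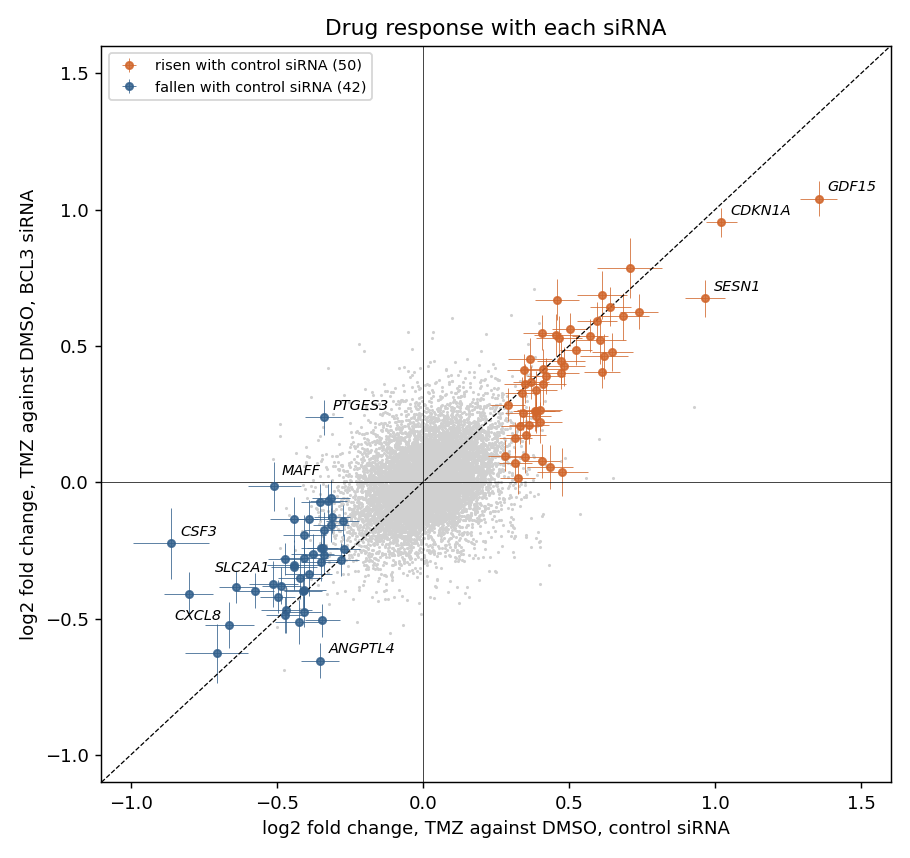
Log2 change with TMZ under control siRNA (horizontal) and BCL3 siRNA (vertical) for all 10686 genes (grey), with the 50 risen and 42 fallen genes coloured and limma standard errors as bars. The dashed line marks equal change: all coloured points but PTGES3 share a sign on both axes. The coloured genes were chosen by the horizontal axis, and 38 of the 50 and 36 of the 42 have the smaller change on the vertical axis. GDF15, SESN1, CXCL8 and CSF3 are among these.

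No gene passed the test of the difference between the 2 drug effects by limma (adjusted p under 0.05), with 718 genes (6.72%) at an unadjusted p under 0.05. Counts of 0 to 3 came from the other settings except median scaling, which gave 11. The 3 lowest p-values were those of ADI1, an enzyme of the methionine salvage pathway, PTGES3, a co-chaperone of HSP90, and ZNF585A, a zinc-finger gene. ADI1 changed by -0.20 with control siRNA and by 0.48 with BCL3 siRNA, a difference of 0.68 (adjusted p = 0.0775). PTGES3 was the only called gene of opposite sign, at -0.34 with control and 0.24 with BCL3 siRNA (adjusted p of the difference = 0.145), and ZNF585A differed by 0.70 (adjusted p = 0.347).

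Several called genes differed between the siRNAs by amounts that did not pass. GDF15 was 1.35 with control and 1.04 with BCL3 siRNA, a difference (BCL3 minus control siRNA) of -0.31 (SE 0.09; adjusted p = 0.579 by limma). SESN1 was 0.96 and 0.67, a difference of -0.29 (SE 0.10; adjusted p = 0.656). CSF3 was -0.86 and -0.22 (0.64, SE 0.18; adjusted p = 0.579), and CXCL8 was -0.80 and -0.41 (0.39, SE 0.12; adjusted p = 0.619). In these 4 genes the change was nearer to 0 with BCL3 siRNA, as it was in 38 of the 50 risen and 36 of the 42 fallen genes. All were chosen by their change with control siRNA, which favours a smaller change in the other contrast. With BCL3 siRNA, CSF3 was also near the detection limit. It stood at 5.14, 5.00 and 4.91 with DMSO and 4.44, 4.97 and 4.97 with TMZ, where 2 of 3 arrays detected it. CDKN1A was 1.02 and 0.95 (-0.07, SE 0.07; adjusted p = 0.899). MAFF was -0.51 and -0.01 and TOB1 was 0.48 and 0.04 (adjusted p of the difference = 0.564 for each). ANGPTL4 had the larger change with BCL3 siRNA, -0.35 and -0.65 (adjusted p of the difference = 0.619).

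The number of calls depended on the processing. Risen and fallen genes numbered 233 and 183 without background correction and 16 and 86 under median scaling, where 15.7% of calls were rises in place of 54.3%. With the authors' own normalized intensities they numbered 86 and 70. Rises and falls numbered 23 and 15 without DMSO replicate 1, 27 and 20 without DMSO replicate 2, and 44 and 20 without DMSO replicate 3. They numbered 22 and 14 without TMZ replicate 1, 25 and 19 without TMZ replicate 2, and 38 and 30 without TMZ replicate 3. No called gene changed sign under any setting, and the change of STYK1 went as low as 0 after rounding. Omission of 1 array could not reverse a sign, because the groups lay apart in every called gene. Settings that altered only the test, such as the one for 1.2-fold, left the changes as they were. Under every setting but a test for a change of at least 1.2-fold, 20 genes passed, among them GDF15, CDKN1A, SESN1, AARS2, DDB2 and SPATA18 of the risen and CXCL8, SLC2A1, TNIP1, ZNF395, ANKRD37, BNIP3 and F3 of the fallen.

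**Figure D5:**
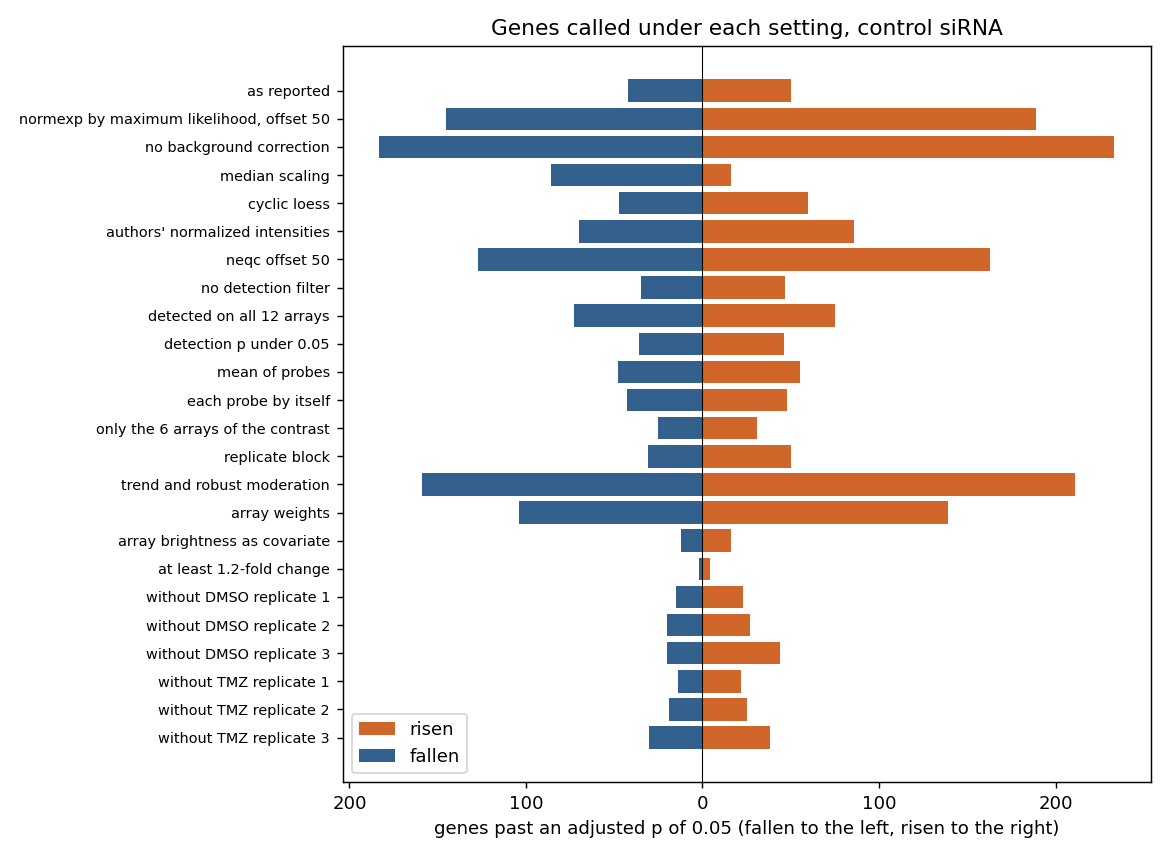
Number of genes past an adjusted p of 0.05 with control siRNA under each processing setting, risen to the right (orange) and fallen to the left (blue). The reported counts are 50 and 42, and the bars range from 4 and 2 for a change of at least 1.2-fold to 233 and 183 without background correction.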

How the data were processed

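Transcript levels were measured on 12 Illumina bead arrays of U87 cells, 3 for each of 4 groups. Bead-averaged intensity values were deposited without normalization, on a linear scale from 72.8 to 20797.5. Detection p-values were deposited beside them, and each column was matched to the intensity column it fell with most strongly (Spearman correlation -0.9791 or lower). The authors' processed intensity values, deposited in a second table, ran from -14.1 to 18425.3 and by their distribution had been background-subtracted and quantile-normalized. The software for this is not given in the sources used. Precision is limited by the number of arrays.

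With R 4.3.3 and limma 3.58.1, neqc corrected the background (negative controls estimated through the detection p-values), added an offset of 16, quantile-normalized the arrays and took log2. Of 47320 probes 30112 had 1 gene symbol, 8 several and 17200 none; 30073 were found in the RefSeq gene table by Entrez identifier and 0 symbols changed. The brightest detected probe stood for a gene. A group-means model on all 12 arrays (lmFit, eBayes; 8 residual degrees of freedom) gave the 2 drug contrasts and their difference. Tests were 2-sided, with Benjamini-Hochberg adjustment across the 10686 genes and a threshold of 0.05. Genes past it are called risen or fallen. The offset makes fold changes of dim genes too small.

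The samples, 23 pathway lists, 6 marker lists and tests were chosen with earlier results of these data known. Named genes were drawn from 9 of prior interest and the called genes. Of the 15 largest rises and 15 largest falls, not all are given in full. Named too were up to 4 called members of a list, or 2 with the lowest p. Added to these were 3 genes of the interaction and 3 on each side of the threshold. Several further list members are named beside them, chosen after their values were seen. On simulated data with this contrast's 10686 genes, 84 of 100 genes changed by 0.5 log2 units and 100 of 100 changed by 1 were recovered, with 10 false calls. The simulated noise was independent between genes and arrays. It held no effect shared by an array, such as brightness, so these rates need not hold for the real arrays. Alternatives were no background correction, normexp with an offset of 50, cyclic loess, median scaling, the authors' values floored at 16, an offset of 50, 3 other detection filters, averaged or separate probes, only 6 arrays, array weights, robust moderation with a trend, the replicate number as a block, brightness as a covariate, a test against 1.2-fold, and omission of each array. Promoter sequences are from RefSeq, GRCh38.p14.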

Additional observations from a re-analysis of the deposited data

Results flagged for a closer look

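Outside the named genes, 3835 detected probes carried no gene symbol or several and entered no comparison above. Tested with all detected probes, 11 of them (0.287%) passed with control siRNA, 4 risen and 7 fallen. This share was below the 0.861% of named genes called, which were adjusted over genes. The 11 were flagged only because these data were not otherwise used. All 11 had the same sign with BCL3 siRNA, as did 62.8% of all genes tested, and 5 passed there. Large changes were those of probes ILMN_3253126, at 1.06 with control and 1.03 with BCL3 siRNA, and ILMN_1725139, at -0.76 and -0.46. Probe ILMN_1770085 was higher with TMZ but lay below the lowest detected level on all 3 DMSO arrays with control siRNA, so no size is given for it. Their genes are not named here.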

How the results depend on the processing

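Rises and falls with control siRNA, 50 and 42 as reported, became 189 and 145 with normexp and an offset of 50, 233 and 183 without background correction, 16 and 86 under median scaling, 86 and 70 with the authors' values, 163 and 127 with a neqc offset of 50, 75 and 73 for detection on all 12 arrays, 31 and 25 with only the 6 arrays, 211 and 159 with trend and robust moderation, 139 and 104 with array weights, 16 and 12 with brightness as a covariate, and 4 and 2 for at least 1.2-fold. In the same order, leaving out detection on all arrays and array weights, those with BCL3 siRNA, 64 and 49 as reported, became 125 and 114, 150 and 137, 90 and 3, 105 and 94, 120 and 109, 20 and 9, 143 and 133, 49 and 29, and 2 and 0. Genes differing between the 2 drug effects, 0 as reported, became 1 with normexp, without background correction, with a neqc offset of 50 and with trend and robust moderation, 3 with the authors' values and 11 under median scaling. Leaving out 1 array gave 22 to 56 rises and 14 to 47 falls with control siRNA, 33 to 55 and 20 to 49 with BCL3 siRNA, and 0 to 1 for the difference. Same-numbered samples did not deviate together (correlations of -0.155, 0.023 and -0.135 with control and -0.009, -0.06 and 0.186 with BCL3 siRNA); with the replicate number as a block, 50 rose and 31 fell with control siRNA, and 52 and 30 with BCL3 siRNA. Of single genes followed, 2 changed sign, MSH3 to -0.067 under median scaling and RPS12 to 0.017 under cyclic loess; neither had passed. Of the 92 calls 6 held under every setting and 32 under every omission of 1 array. The cause of these differences was not tested. Probes near background carry the least information: 312 named probes were detected on only 3 arrays.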
